A study of Mus musculus with 2 samples.

Results

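Interferon-stimulated genes are the genes that cells switch on when interferon reaches them. The listed members were 39 genes, of which 37 had a row among the 32285 genes of the count tables. Mx1 and Mx2, the Mx GTPases, were not analysed here. All members were taken by symbol from a list that was chosen with earlier results of these data known. Levels were compared in 2 droplet single-cell RNA libraries of soft tissue around the mouse Achilles tendon. The injured library came from the tendon side cut in a burn/tenotomy procedure, 7 days later, an injury after which bone forms in soft tissue. The uninjured library came from the contralateral tendon of mice that had the procedure, so it is not tissue of untreated mice. Both carried the alleles Hoxa11 wt/CreERT2 and R26 wt/LSL-rtTA with the transgene TetO-Vegfd. Both libraries thus share alleles meant to overexpress Vegfd, a lymphatic growth factor, through cells that had used the Hoxa11 promoter. The overexpression itself was not tested here. Male and female mice were operated at an age of 8 to 12 weeks. The study states 5 mice per group, and the sources used here do not give whether a library pools several of them. Control mice were not analysed here.

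Type I interferons signal through a receptor that activates the kinases JAK1 and TYK2. A complex that holds STAT2 and IRF9 then binds the interferon-stimulated response element (ISRE) upstream of target genes. Interferon gamma acts mainly at a second element, the gamma-activated site (GAS). The products block viral entry, translation and replication, and the guanylate-binding and immunity-related GTPases attack the vacuoles of intracellular pathogens. Many cell types keep a low level of this programme running without infection.

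The promoters of 5 members are printed below, as examples in which one of these elements was found among members whose levels recur in the comparisons. They are the 200 bases upstream of the RefSeq gene start on GRCm38.p6, 5′ to 3′ on the gene's strand, in lower case. Capitals mark each match to the ISRE core (GAAA, any 2 bases, GAAA) or the GAS core TTCNNNGAA, searched on both strands.
Isg15 (chr4:156200819-156201018, minus strand): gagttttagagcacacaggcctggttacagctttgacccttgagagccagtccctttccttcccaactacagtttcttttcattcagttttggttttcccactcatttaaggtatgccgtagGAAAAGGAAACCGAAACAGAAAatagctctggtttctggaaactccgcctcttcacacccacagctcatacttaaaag
Ifit1 (chr19:34640689-34640888, plus strand): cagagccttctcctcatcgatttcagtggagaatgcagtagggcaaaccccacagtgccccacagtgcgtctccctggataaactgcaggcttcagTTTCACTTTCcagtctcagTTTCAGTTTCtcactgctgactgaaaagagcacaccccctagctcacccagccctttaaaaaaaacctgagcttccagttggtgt
Rsad2 (chr12:26456453-26456652, minus strand): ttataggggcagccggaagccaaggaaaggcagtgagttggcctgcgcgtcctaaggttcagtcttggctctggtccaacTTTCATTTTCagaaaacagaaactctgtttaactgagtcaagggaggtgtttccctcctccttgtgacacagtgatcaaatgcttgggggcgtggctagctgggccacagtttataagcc
Gbp2 (chr3:142620463-142620662, plus strand): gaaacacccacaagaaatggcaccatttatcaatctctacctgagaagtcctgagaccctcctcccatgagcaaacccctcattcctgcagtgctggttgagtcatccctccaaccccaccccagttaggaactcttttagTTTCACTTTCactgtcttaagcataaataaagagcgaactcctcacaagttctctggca
Irf1 (chr11:53769814-53770013, plus strand): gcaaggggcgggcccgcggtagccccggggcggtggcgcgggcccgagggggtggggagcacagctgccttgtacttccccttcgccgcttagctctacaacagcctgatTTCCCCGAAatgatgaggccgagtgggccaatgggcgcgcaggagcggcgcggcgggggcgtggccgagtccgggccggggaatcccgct
The Isg15 run holds 3 overlapping matches to the ISRE core, Ifit1 holds 2, Rsad2 and Gbp2 hold 1 each, and Irf1 holds 1 match to the GAS core. Neither core was found in the same 200 bases of Ifit2, Irf7 and Cmpk2, and no window was matched for Iigp1. RefSeq promoter windows were matched for 29 of the 39 members, and some genes have several. Each window was searched over the 250 bases before the start. There the ISRE core was found for 14 of those 29 members, in 42.4% of their 33 windows, against 2.98% of 32851 windows of all genes. The GAS core was found for 6 of the 29, in 18.2% of member windows, against 7.02% of all windows. A match is a run of letters and no measured binding. Several members lie side by side on GRCm38. Ifit2, Ifit3, Ifit3b and Ifit1 span 99.3 kb of chromosome 19, Rsad2 and Cmpk2 span 37.1 kb of chromosome 12, and Gbp7, Gbp3 and Gbp2 span 107.7 kb of chromosome 3.

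Levels are given in CPM, the UMI counts of a gene summed over a cell population of one library and scaled to the population's total UMIs. Both libraries were filtered to 9151 injured and 4700 uninjured cells, with medians of 17492 and 15771.5 UMIs per cell. Cells were grouped by clustering that used no interferon gene, and clusters were named from marker lists. Each group is 1 library, so differences are given as sizes with counting intervals, with no test and no replicate check. A member counts as past 2-fold when the log2 ratio of injured over uninjured, computed with 5 CPM added to each, is beyond 1 in size. Counts over members cover those with 10 CPM or more in at least 1 library, and the share of all such genes past 2-fold is given beside them. The libraries share 19 cell barcodes. Of the deposited barcodes, 7.49% of the injured and 26.4% of the uninjured were over the 10% limit on mitochondrial UMIs. The stress genes of dissociation summed to 3066 CPM in injured and 5067 CPM in uninjured cells.

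In the injured library no single class held the programme. A 14-gene antiviral core (Ifit1, Ifit2, Ifit3, Ifit3b, Oas1a, Oas2, Oas3, Oasl2, Rsad2, Cmpk2, Isg15, Usp18, Herc6 and Irf7) was split between mononuclear phagocytes with 33.8% of its UMIs, vascular endothelium with 24.9%, mesenchymal cells with 17.9% and neutrophils with 9.52%. These classes held 16.9%, 17.2%, 46.3% and 2.07% of all UMIs, in the same order. Mesenchymal cells thus held a smaller share of the core than of all UMIs, and the others a larger one. Highest levels were spread over vascular endothelium for 11 members, phagocytes for 9, neutrophils for 9, plasmacytoid dendritic cells for 5, dendritic cells for 2 and T or NK cells for 1, among 11 named classes. Neutrophils, the short-lived phagocytes of acute wounds, numbered 993 injured cells and 4 uninjured cells, so no comparison was made for them. The 4 uninjured cells had a core level of 2233 CPM (95% interval 1747 to 2812). That of injured neutrophils was 1242 CPM (95% interval 1211 to 1274), the highest of the injured classes. Injured neutrophils held a median of only 3965 UMIs. Isg15 reached 597 CPM in neutrophils, against 85.6 CPM in mononuclear phagocytes, the second class. Rtp4, a chaperone that restricts flaviviruses, reached 232 CPM in neutrophils and 71.1 CPM in mononuclear phagocytes. Oas3 reached 58.6 and 18.3 CPM in the same 2 classes, and Rsad2 156 CPM in neutrophils against 56.7 CPM in injured vascular endothelium. The core was thus high in neutrophils while the GTPase Iigp1, at 1.41 CPM, was lower than in any other of the 11 classes. The plasmacytoid dendritic class, 64 injured cells of a cell type known for its output of type I interferon, was high in a different set. Bst2, the tetherin that holds budding virus at the membrane, stood at 1917 CPM there, Trim25, a ubiquitin ligase of the RIG-I pathway, at 317 CPM, Irf1 at 304 CPM and Stat2 at 137 CPM. The core in that class was 189.5 CPM, and the cluster scored nearly as high on the B cell list as on its own. Keratinocytes, 306 injured cells, had the lowest core level at 31.2 CPM (95% interval 28.0 to 34.6).

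In the uninjured library most members were highest in blood vessel cells, among classes with 50 or more cells. Of the 8 named classes with 50 or more uninjured cells, vascular endothelium had the highest level of 27 of the 37 members. It held 68.6% of the core UMIs and 35.0% of all UMIs. Rsad2, which makes a chain-terminating nucleotide and is called viperin, stood at 146 CPM in uninjured vascular endothelium and 18.1 CPM in mononuclear phagocytes, the next highest class. Iigp1, an immunity-related GTPase that coats pathogen vacuoles, stood at 596 CPM in vascular and 169.9 CPM in lymphatic endothelium. Isg15, a ubiquitin-like protein attached to other proteins, stood at 215 CPM in vascular and 76.3 CPM in lymphatic endothelium. The OAS genes, whose products make the oligoadenylates that switch on RNase L, did not follow this order. Oas1a, Oas2, Oas3 and Oasl2 were all highest in uninjured mononuclear phagocytes, at 37.1, 34.2, 13.2 and 64.1 CPM. For Oasl2 the margin over vascular endothelium (62.9 CPM) was within counting error, with intervals of 57.5 to 71.3 and 60.1 to 65.7 CPM. Irf1, Ifih1, Dhx58, Zbp1 and Ifi27l2a were also highest in phagocytes, and Trim25 in dendritic cells at 174 CPM against 168 CPM in vascular endothelium.

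**Figure D1:**
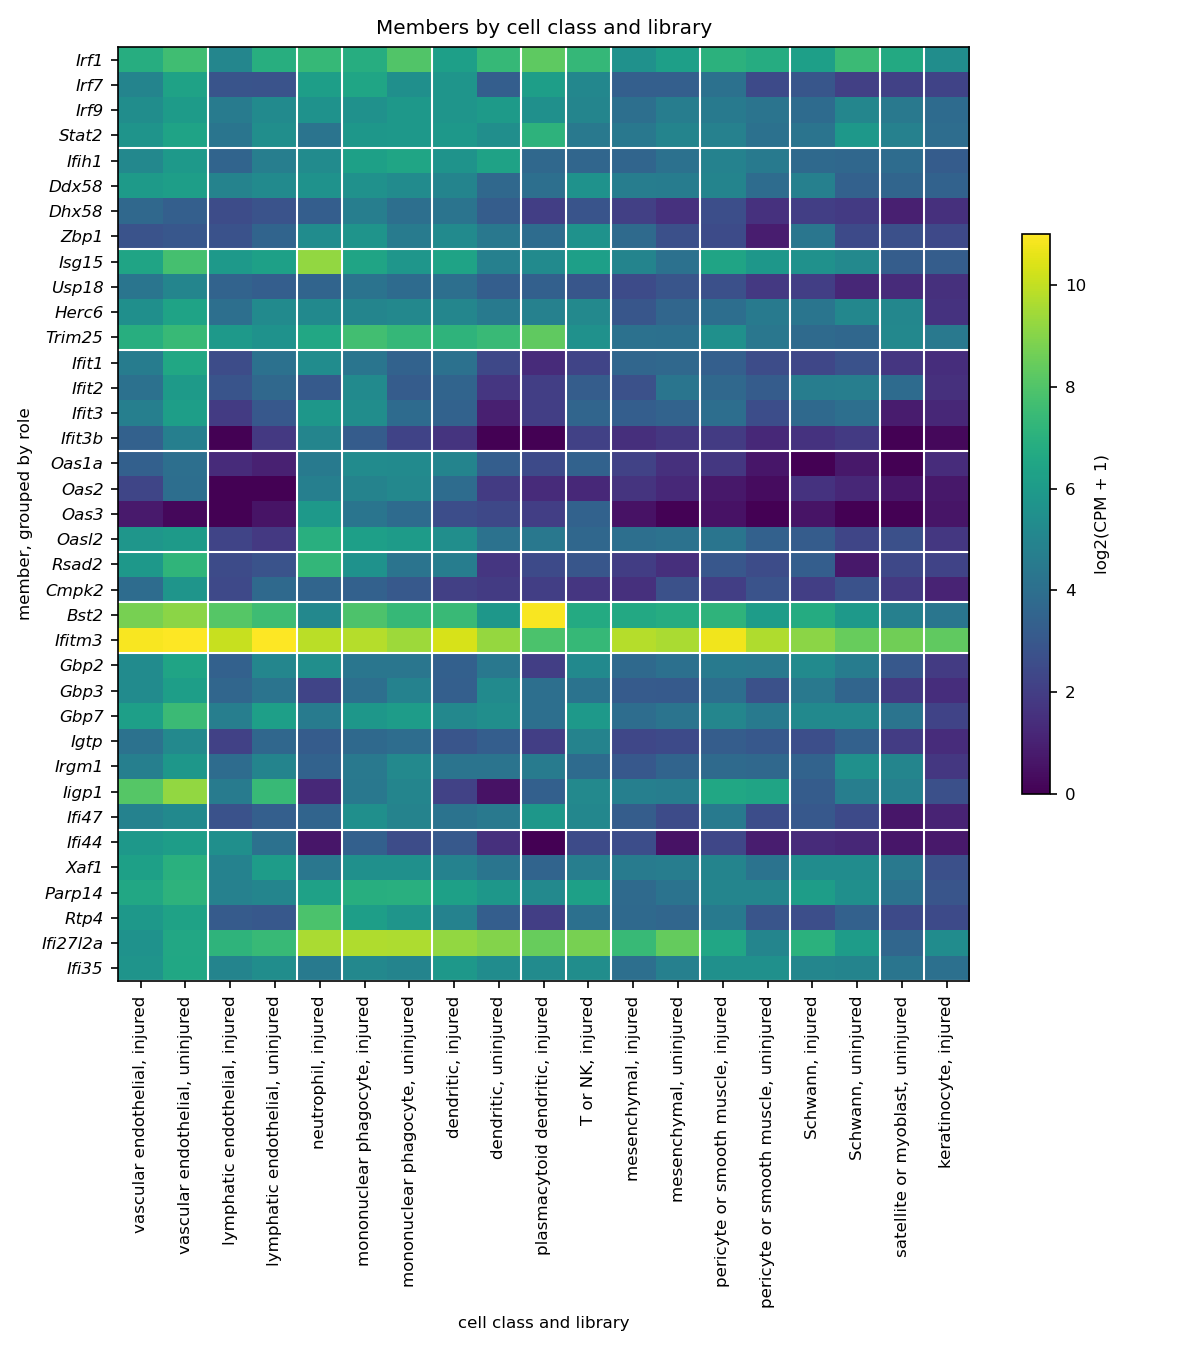
Levels of the 37 members as log2(CPM + 1), by role in rows and by cell class and library in columns, for populations with 50 or more cells in that library. Ifitm3, Bst2 and Ifi27l2a are the brightest rows, the uninjured vascular endothelial column is brighter than its injured neighbour in most rows, and the neutrophil column is brightest for Isg15 (597 CPM) and Rsad2 (156 CPM).

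Across all cells, most members were lower in the injured library. Of 34 members at 10 CPM or more, 9 were more than 2-fold lower and 0 were more than 2-fold higher. Over all genes at that level, 6.57% were more than 2-fold lower and 5.04% more than 2-fold higher. The median log2 ratio of the 37 members was -0.62, against -0.03 over all genes at that level. Iigp1 was lowest in ratio, with 77.1 CPM in injured and 277 CPM in uninjured cells, a log2 ratio of -1.78. Cmpk2, a mitochondrial nucleotide kinase encoded beside viperin, had 5.91 CPM in injured and 25.6 CPM in uninjured cells. Ifit1, which binds viral RNA that lacks host cap methylation, had 15.4 and 44.5 CPM in the same order. The other members past 2-fold were Gbp7, Rsad2, Ifit2, Irgm1, Gbp2 and Herc6, at log2 ratios of -1.27, -1.19, -1.10, -1.03, -1.02 and -1.01. At the other end, Zbp1, a sensor of Z-form nucleic acids that can trigger cell death, had 18.3 CPM in injured and 7.40 CPM in uninjured cells, and Oas3 had a log2 ratio of 0.69. This difference moved with cell composition. Vascular endothelium made up 13.1% of injured and 35.1% of uninjured cells, and when the named classes were given equal weight the median was -0.066 and 1 member was more than 2-fold lower.

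Within vascular endothelium the members were still lower after injury. Of 35 members at 10 CPM or more, 12 were more than 2-fold lower and 0 more than 2-fold higher, in 1202 injured and 1652 uninjured cells. Most injured cells of the class came from clusters led by Plvap and Aplnr, by Selp and Vwf and by cell cycle genes, and most uninjured cells from one led by Timp4 and Gpihbp1. The shares over all genes of the class were 4.41% lower and 4.70% higher. The median log2 ratio was -0.74 for the 37 members and -0.78 for the 35 at 10 CPM or more. Over all genes at that level it was 0.04. All 4 IFIT genes were among the 12. Ifit1 had 23.8 CPM in injured and 92.1 CPM in uninjured endothelium, so the uninjured level was 3.87 times (95% interval 3.60 to 4.17) the injured one, a log2 ratio of -1.75. Ifit2, an RNA-binding member of the family, had 16.3 and 62.3 CPM (log2 ratio -1.66). Ifit3 had 26.3 and 71.1 CPM (-1.28), and its near copy Ifit3b 9.64 and 25.8 CPM (-1.07). Ifit3 shares 12.9% of the 60-base words of its last 500 bases with Ifit3b, so reads may be split between them.

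The viperin pair was lower too, with Rsad2 at 56.7 CPM in injured and 146 CPM in uninjured endothelium (-1.29). Cmpk2 stood at 13.7 and 52.1 CPM (-1.61). Of the ISG15 system, Isg15 itself stood at 85.4 CPM in injured and 215 CPM in uninjured endothelium (-1.29). Herc6, the ligase that attaches it in mice, was at a log2 ratio of -0.83, Usp18, the protease that removes it and damps the interferon receptor, at -0.63, and Trim25 at -0.51, none of them past 2-fold. Among the transcription factors only Irf7, which amplifies type I interferon, was past 2-fold, at 29.8 and 80.9 CPM (-1.30). Irf1 was at -0.74, Stat2 at -0.64 and Irf9 at -0.57. The GTPases summed to 496 CPM in injured and 1057 CPM in uninjured endothelium, with Gbp7 at -1.24, Iigp1 at -1.10 and Gbp2 at -1.04. Iigp1 was the GTPase with the highest level in both libraries, at 275 CPM in injured and 596 CPM in uninjured cells. Oas2 was the OAS gene past 2-fold, at 3.92 and 14.6 CPM (-1.13).

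A second set of members was close in both libraries of this class. Ifitm3, which blocks virus at the endosomal membrane, had 1909 CPM in injured and 2169 CPM in uninjured endothelium (-0.18). Bst2 had 429 and 545 CPM (-0.34), and Ddx58, the RNA sensor RIG-I, 62.8 and 70.4 CPM (-0.15). Oasl2, Ifi44 and Ifi47 were at -0.22, -0.24 and -0.30. Between these sets lay Irgm1 (-0.98), Ifi27l2a (-0.94), Igtp (-0.90), Ifi35 (-0.83), Gbp3 (-0.78), Ifih1 (-0.72), Xaf1 (-0.68), Parp14 (-0.49), Oas1a (-0.48) and Rtp4 (-0.43). Zbp1 and Oas3 were under 10 CPM in both libraries. Dhx58, the RIG-I relative LGP2, was the member with the highest ratio among those counted, at 12.0 CPM in injured and 9.01 CPM in uninjured cells (0.28). By promoter, the 14 members with an ISRE core had a median log2 ratio of -1.01 in vascular endothelium and the 15 without one -0.68. In mononuclear phagocytes the medians were 0.20 and 0.22, in resident macrophages 0.87 and 0.40, and across all cells -0.79 and -0.58. The 6 members with a GAS core had a median of -0.82 in vascular endothelium and the 23 without one -0.78. These medians are descriptions with no test. Depth and stress moved with the class as well. Injured endothelial cells held a median of 24800.5 UMIs and uninjured ones 14179, and the stress genes summed to 2666 and 4514 CPM. Erythroid markers summed to 307 CPM in injured and 3249 CPM in uninjured endothelium, and macrophage markers to 322 and 113 CPM. A subcluster led by Cd74, H2-Aa and Lyz2 held 71 injured and 8 uninjured endothelial cells. Without it, 11 of the 12 members stayed past 2-fold. The part of macrophage RNA in the other members' levels was not tested. In cells at or below the median stress share, 12 members were more than 2-fold lower and the median was -0.77, with 11 of the 12 named above still past 2-fold and Iigp1 at -0.77.

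The endothelial subtypes differed in their levels and in their shares. Endothelial cells were clustered again and named as arterial, venular, lipid-handling capillary, lymphatic or angiogenic from marker lists. The lipid-handling capillary subtype (Cd36, Fabp4 and Gpihbp1 markers) held 102 injured and 1127 uninjured cells. Its core level was 1011 CPM (95% interval 956 to 1069) in injured and 1069.6 CPM (95% interval 1055 to 1084) in uninjured cells. None of its 34 members at 10 CPM or more was past 2-fold in either direction, against 0.505% of all genes lower and 0.792% higher, and the median log2 ratio was -0.04. Isg15 had 250.2 CPM in injured and 231 CPM in uninjured capillary cells. Rsad2 had 183 and 176 CPM, and Iigp1 779.6 and 647 CPM. Ifit1 had 75.6 CPM in injured and 106 CPM in uninjured capillary cells, a log2 ratio of -0.46. Over the whole subtype, member levels of injured and uninjured capillary cells were thus close. Its subclusters differed among themselves. One led by stress genes, which summed to 9198 CPM in injured and 8297 CPM in uninjured cells, had core levels of 1172 CPM (95% interval 1087 to 1261) in injured and 1039 CPM (95% interval 1018 to 1062) in uninjured cells. A second, with stress genes at 1171 and 1851 CPM, had 747 CPM (95% interval 668 to 833) in injured and 1029.8 CPM (95% interval 1006 to 1054) in uninjured cells. Another, with stress genes at 2195 and 1985 CPM, had 1007 CPM (95% interval 858 to 1175) in 16 injured and 1192 CPM (95% interval 1158 to 1227) in 292 uninjured cells. In the injured library the subcluster led by stress genes was thus above the second, while in the uninjured library their intervals overlapped.

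Arterial cells, 66 injured and 196 uninjured, had a core level of 1146 CPM (95% interval 1096 to 1198) in injured and 1252 CPM (95% interval 1215 to 1289) in uninjured cells. Of 35 members, 3 were more than 2-fold lower (background 3.11%) and 0 higher (5.40%). They were Ifi27l2a, a small interferon-induced protein, with 72.0 CPM in injured and 284 CPM in uninjured cells (-1.91), Irf7 (-1.49) and Gbp7 (-1.13). Rsad2 had 258 CPM in injured and 153 CPM in uninjured arterial cells (0.73). In injured arterial cells the top 5% of cells held 45.2% of the core UMIs, against 23.6% in uninjured ones, after thinning each cell to 2000 UMIs. At least 1 core UMI was found in 47.7% of 65 injured and 72.6% of 190 uninjured arterial cells thinned so. The highest injured cell had 30 core UMIs. Much of the injured arterial core thus lay in few cells. Venular cells, 310 injured and 245 uninjured, differed more. Their core level was 213 CPM (95% interval 203 to 223) in injured and 467 CPM (95% interval 448 to 487) in uninjured cells. Of 33 members, 4 were more than 2-fold lower (background 3.58%) and 0 higher (3.27%), namely Rsad2 with 8.23 and 49.2 CPM (-2.03), Ifit1 (-1.41), Isg15 (-1.22) and Cmpk2 (-1.12). Injured and uninjured venular cells fell mostly into different subclusters, 300 injured cells in one and 213 uninjured cells in the other. Stress genes summed to 3937 CPM in injured and 5333 CPM in uninjured venular cells, and erythroid markers to 17.7 CPM in injured and 1262 CPM in uninjured arterial cells.

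The angiogenic subtype, marked by Plvap and Aplnr, held 508 injured and 7 uninjured cells and made up 39.5% of the injured and 0.403% of the uninjured endothelial cells, lymphatic ones included. Its core level was 418 CPM (95% interval 409 to 428), below the 1011 CPM of capillary cells of the same library. Rsad2 stood at 61.3 CPM in these angiogenic cells, against 183 CPM in injured capillary cells, and Isg15 at 88.1 and 250.2 CPM. Capillary cells made up 7.93% of injured and 64.9% of uninjured endothelial cells. With the arterial, capillary and venular subtypes given equal weight, the members' median log2 ratio in vascular endothelium was -0.14, and 0 members were more than 2-fold lower. Under that weighting Rsad2 turned to 0.24, with the 66 injured arterial cells counting as much as each other subtype.

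**Figure D2:**
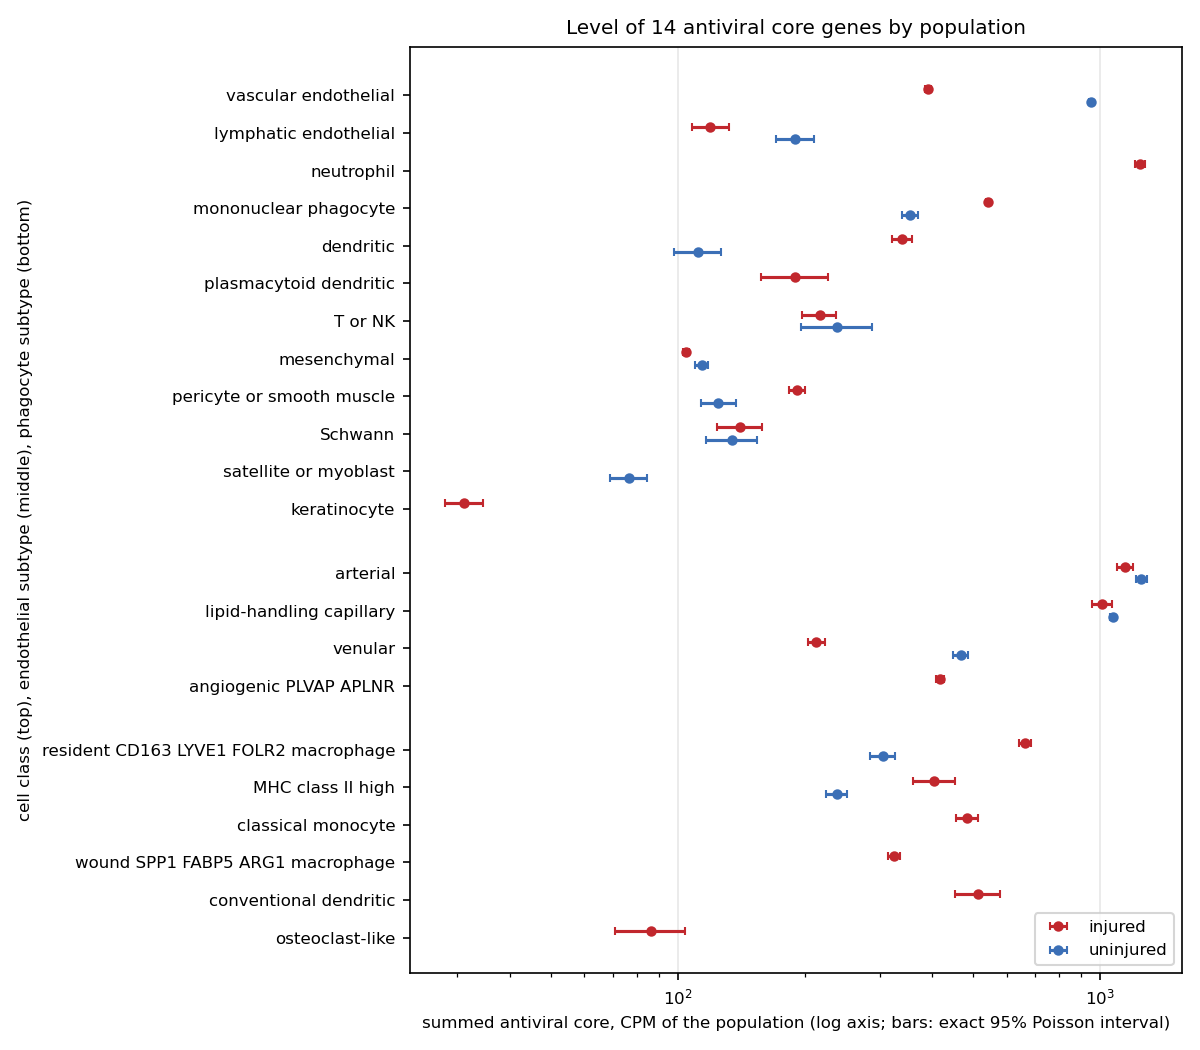
Summed level of the 14 antiviral core genes in CPM (log axis) for each cell class, endothelial subtype and phagocyte subtype, injured in red above uninjured in blue, with exact 95% Poisson intervals that cover counting error only. The capillary and arterial points of both libraries lie near 1011 to 1252 CPM, the venular and angiogenic points lie lower, and the resident macrophage points are at 664 and 305 CPM.

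Lymphatic endothelium, 84 cells in each library, had less Irf1 and less of 3 of the 7 GTPases after injury. Of 26 members, 8 were more than 2-fold lower and 1 higher, in a class where 10.3% of all genes were lower and 10.6% higher. Iigp1 had 22.9 CPM in injured and 169.9 CPM in uninjured lymphatic cells (-2.65). Irf1, a factor induced strongly by interferon gamma, had 31.9 and 119 CPM (-1.75), Gbp2 9.61 and 32.5 CPM (-1.36), and Gbp7 25.4 and 72.2 CPM (-1.34). Xaf1, Ifit1, Herc6 and Stat2 were at -1.12, -1.09, -1.08 and -1.02. Ifi44 was the member that was higher, at 43.7 and 16.3 CPM (1.20). The core level of the class was 119 CPM in injured and 189.7 CPM in uninjured cells. Stress genes here summed to 1024 CPM in injured and 4576 CPM in uninjured cells, and erythroid markers to 2057 and 79.8 CPM, and their part in the result was not tested. Xist-positive cells lacking Y-linked UMIs made up 50% of injured and 23.8% of uninjured lymphatic cells.

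Mononuclear phagocytes, the monocytes and macrophages, had higher levels of part of the list. In 2751 injured and 349 uninjured cells, 4 of 34 members were more than 2-fold higher and 1 more than 2-fold lower, against 2.71% and 3.91% of all genes. Ifit2 had 37.2 CPM in injured and 8.28 CPM in uninjured phagocytes, 4.50 times (95% interval 3.34 to 6.22) the uninjured level, a log2 ratio of 1.67. Ifit3 had 41.2 and 13.5 CPM (1.32), Rsad2 48.0 and 18.1 CPM (1.20), and Zbp1 50.9 and 22.6 CPM (1.02). Irf1 was lower, with 115 CPM in injured and 261 CPM in uninjured phagocytes (-1.15). The GTPases Gbp3, Irgm1 and Iigp1 were at -0.72, -0.64 and -0.53, none past 2-fold. The core summed to 542 CPM (95% interval 535 to 549) in injured and 355 CPM (95% interval 339 to 371) in uninjured phagocytes, and the members' median log2 ratio was 0.22. Most injured cells came from clusters led by H2-Aa and Plac8 and by Pf4 and Spp1, and most uninjured cells from one led by Ccl8 and F13a1. A cluster that stayed unnamed, 2 injured and 65 uninjured cells whose best list was macrophage and which was led by Retnla and F13a1, is not in this class. Its uninjured cells had 92.5 CPM of the IFIT genes and 67.9 CPM of the viperin pair, against 35.4 and 25.4 CPM in the uninjured phagocytes counted here. With it included, Ifit2 was at 1.22, and Rsad2, at 0.90, was no longer past 2-fold. Several values moved with this result. Stress genes summed to 5802 CPM in injured and 8938 CPM in uninjured phagocytes, and erythroid markers to 338 and 167 CPM. In cells at or below the median stress share 3 of the 5 members stayed past 2-fold, while Irf1 was at -0.26 and Zbp1 at 0.092. Xist-positive cells lacking Y-linked UMIs were 41.0% of injured and 71.1% of uninjured phagocytes. Among such cells the median was 0.34 with 5 members higher, while in Y-positive cells lacking Xist UMIs it was -0.21 with 2 higher and 3 lower. Neutrophil markers, at 68267 CPM in injured neutrophils, summed to 200.3 CPM in injured and 82.6 CPM in uninjured phagocytes, and their part in the result was not tested. With a mitochondrial limit of 20% the count of higher members was 2.

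For subtypes, the mononuclear phagocytes, the dendritic cells and the unnamed macrophage cluster were clustered again together. Among the phagocyte subtypes with enough cells in both libraries were resident macrophages, named from Cd163, Lyve1, Folr2 and related markers. In 313 injured and 163 uninjured cells, 11 of the 37 members were past 2-fold and higher, and 0 lower, against 3.10% and 3.37% of all genes, with a median log2 ratio of 0.49. Ifit2 had 66.5 CPM in injured and 7.88 CPM in uninjured resident macrophages (2.47). Rsad2 had 66.5 and 12.0 CPM (2.07), Ifit3 59.0 and 11.6 CPM (1.94), and Ifit1 30.4 and 6.76 CPM (1.59). The IFIT genes and viperin were thus several times higher, on a low uninjured level. Ifi44, Zbp1, Irf7, Ifit3b and Oas3 were at 1.43, 1.36, 1.31, 1.31 and 1.29. Ifih1, the long double-stranded RNA sensor MDA5, had 135 CPM in injured and 55.9 CPM in uninjured cells (1.20), and Bst2 was at 1.07. Irf1 was again lower in ratio, at 153 and 296 CPM (-0.93). The core stood at 664 CPM (95% interval 643 to 685) in injured and 305 CPM (95% interval 285 to 327) in uninjured cells. Injured and uninjured resident macrophages fell into different subclusters, with 306 injured cells in one and 161 uninjured cells in the other, formed without interferon genes. In Xist-positive cells lacking Y-linked UMIs 7 members were more than 2-fold higher, and in Y-positive cells lacking Xist UMIs 13 were higher and 1 lower. Stress genes summed to 8446 CPM in injured and 9123 CPM in uninjured cells, and neutrophil markers to 239.6 and 50.3 CPM.

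**Figure D3:**
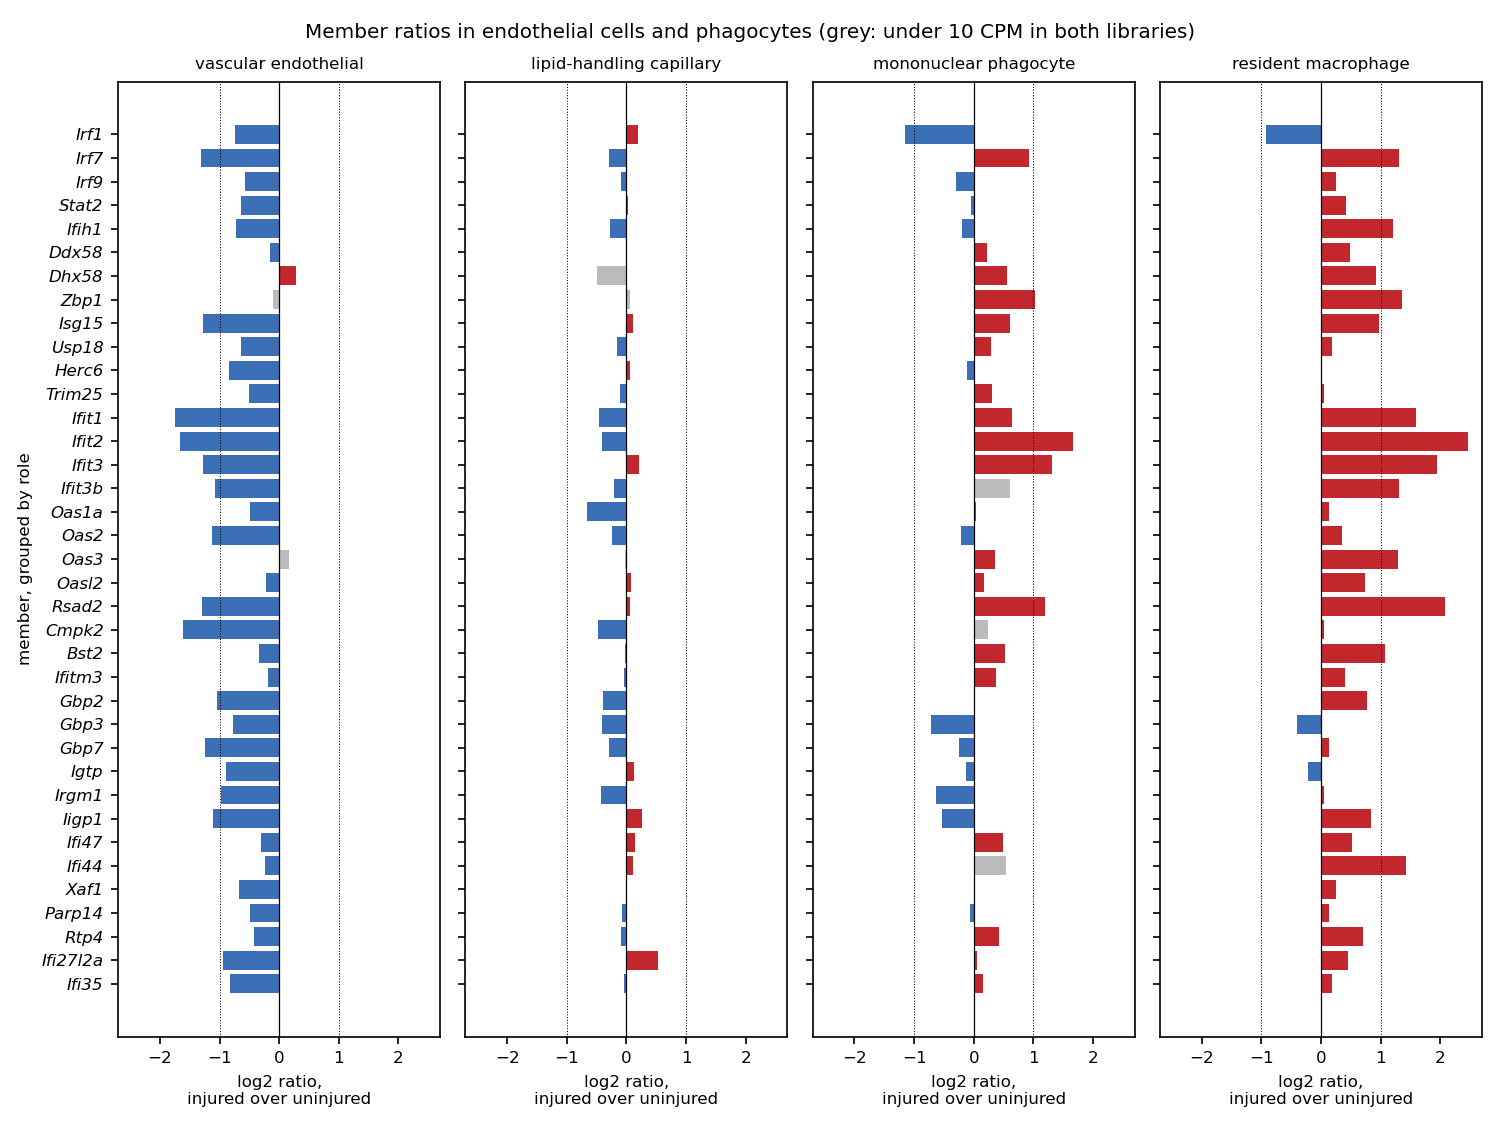
Log2 ratio of injured over uninjured for each of the 37 members in vascular endothelium, its capillary subtype, mononuclear phagocytes and resident macrophages, with dotted lines at 2-fold and members under 10 CPM in both libraries in grey. Bars point left for most members in vascular endothelium (median -0.74), stay inside the dotted lines in capillary cells and point right for most members in resident macrophages (median 0.49).

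Other phagocytes of the injured limb spanned a wide range. MHC class II high cells, 45 injured and 280 uninjured, had core levels of 404 CPM (95% interval 359 to 453) and 237 CPM (95% interval 224 to 252). After thinning each cell to equal depth, a core UMI was found in 33.3% of injured and 38.5% of uninjured ones. Mean core UMIs per thinned cell were 0.444 in injured and 0.586 in uninjured MHC class II high cells. The higher injured level was thus seen in summed UMIs and not per thinned cell. Wound macrophages marked by Spp1, Fabp5 and Arg1, 586 injured cells, had 324 CPM (95% interval 314 to 335), and osteoclast-like cells, 31 injured cells with bone-resorbing markers, 86.1 CPM (95% interval 70.8 to 104). Classical monocytes, 200 injured cells, had 483 CPM (95% interval 455 to 513), with Ifitm3 at 3377 CPM and Ifi27l2a at 2100.0 CPM, against 316 and 258 CPM in wound macrophages. Subclusters that stayed unnamed made up 59.6% of the injured and 9.16% of the uninjured phagocytes clustered. One of them, 444 injured cells led by Il1b, Plac8 and Ccr2, had a core level of 904 CPM (95% interval 879 to 931) with Isg15 at 201 CPM and Irf7 at 177 CPM. A second, 647 injured cells led by Ms4a7 and the C1q genes, had 684 CPM (95% interval 668 to 700.4) with Bst2 at 363 CPM.

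Dendritic cells, which prime T cells, were higher for much of the list. In 249 injured and 99 uninjured cells, 13 of 31 members were more than 2-fold higher and 2 lower, against 5.85% and 6.04% of all genes. Irf7 had 52.0 CPM in injured and 8.82 CPM in uninjured dendritic cells (2.04), Rsad2 24.2 and 2.32 CPM (2.00), Bst2 177 and 55.7 CPM (1.58), and Isg15 81.3 and 26.4 CPM (1.46). The other higher members were Ifit3 (1.35), Ifit1 (1.21) and Ifit2 (1.10) of the IFIT genes, Oas1a (1.33), Oas2 (1.28) and Oasl2 (1.13) of the OAS genes, and Rtp4 (1.26), Ifitm3 (1.07) and Ddx58 (1.06). Gbp3, at 9.06 and 37.6 CPM (-1.60), and Irf1, at 73.0 and 165 CPM (-1.12), were the lower members. Neutrophil markers summed to 254 CPM in injured and 4.18 CPM in uninjured dendritic cells, erythroid markers to 695 and 83.5 CPM and stress genes to 3978 and 5868 CPM, and their part in the result was not tested. The cluster was led by MHC class II genes, Retnla and Mgl2. When phagocytes, dendritic cells and the unnamed macrophage cluster were clustered again together, conventional dendritic cells numbered 37 injured and 0 uninjured. Unnamed subclusters that scored on the dendritic list held 127 injured and 1 uninjured cells, and 41 and 12. An MHC class II high subcluster led by Retnla held 30 injured and 84 uninjured cells. Injured and uninjured cells of the dendritic class may thus differ in kind, and the part of this in the result was not tested. Xist-positive cells lacking Y-linked UMIs were 32.5% of injured and 73.7% of uninjured dendritic cells. Irf1 was thus more than 2-fold lower in lymphatic endothelium, phagocytes and dendritic cells, and also in Schwann cells. Stress genes were lower in the injured library in every class compared. The part of stress in the Irf1 levels was not tested. By contrast, Rsad2 and Irf7 were higher in ratio in phagocytes and dendritic cells.

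Pericytes and smooth muscle, 452 injured and 224 uninjured cells, had 7 of 25 members past 2-fold and higher and 0 lower, against 6.89% and 6.38% of all genes. Ifi47, an immunity-related GTPase, had 21.9 CPM in injured and 5.11 CPM in uninjured cells (1.41). Ifitm3 had 1739 and 818 CPM (1.08), and Ifi27l2a, Rtp4, Irf7, Bst2 and Trim25 were at 1.40, 1.24, 1.17, 1.04 and 1.04. In this class a pericyte cluster held 399 injured and 81 uninjured cells, another 5 and 38, and a smooth muscle cluster 48 and 105. Neutrophil markers summed to 95.2 CPM in injured and 2.56 CPM in uninjured cells. Erythroid markers summed to 18.0 CPM in injured and 1003 CPM in uninjured cells and stress genes to 3292 and 4733 CPM, and their part in the result was not tested. Mesenchymal cells, 2424 injured and 1328 uninjured, had low levels in both libraries, with 1 of 24 members past 2-fold and lower and 0 higher, against 6.69% and 4.27% of all genes. Their member past 2-fold was Ifit2, with 5.70 CPM in injured and 18.5 CPM in uninjured cells (-1.14), while Isg15 had 30.2 and 16.1 CPM (0.73). Most injured mesenchymal cells came from clusters led by Sfrp2, C1qtnf3 or Cxcl5, and most uninjured ones from clusters led by Gsn and Clec3b or by Fmod. Stress genes summed to 1844 CPM in injured and 3029 CPM in uninjured mesenchymal cells, and erythroid markers to 60.6 and 581 CPM. Mesenchymal cells are the ones with most UMIs of the Vegfd transgene and gene together, 194 CPM in injured and 65.8 CPM in uninjured cells. Schwann cells, 100 injured and 170 uninjured, had 2 of 22 members higher and 5 lower, against 11.4% and 9.24% of all genes. The higher ones were Zbp1 (1.34) and Ddx58 (1.09), and the lower ones Irgm1 (-1.70), Stat2 (-1.48), Irf1 (-1.27), Iigp1 (-1.20) and Irf9, with 13.4 CPM in injured and 31.9 CPM in uninjured cells. Stress genes summed to 3427 CPM in injured and 12972 CPM in uninjured Schwann cells, which held medians of 14589.5 and 7348 UMIs, and their part in the result was not tested.

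Per cell, the response was uneven. Each cell was thinned to 2000 UMIs and its core UMIs were counted, leaving out shallower cells. At least 1 core UMI was found in 43.3% of injured and 66.3% of uninjured vascular endothelial cells, and without thinning in 88.4% and 91.3%. In mononuclear phagocytes the thinned shares were 47.4% and 43.9%, and the unthinned ones 83.4% and 86.2%. Injured keratinocytes, the class lowest in core, gave 4.97% thinned and 33.3% unthinned, at a median depth of 29569.5 UMIs. Cells with 5 or more core UMIs numbered 358 of 8691 thinned injured cells and 218 of 4515 uninjured ones. In the injured library 166 of them (46.4%) were neutrophils, 120 (33.5%) phagocytes and 35 (9.78%) vascular endothelial cells. In the uninjured library 186 (85.3%) were vascular endothelial and 5 (2.29%) phagocytes. Such cells made up 17.2% of neutrophils (95% interval 14.9 to 19.7). They made up 3.0% of injured and 11.6% of uninjured vascular endothelial cells, and 4.74% of injured and 1.46% of uninjured phagocytes. The 5% of neutrophils with most core UMIs held 34.8% of the core UMIs of that class, and the highest neutrophil had 47 of 2000.

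**Figure D4:**
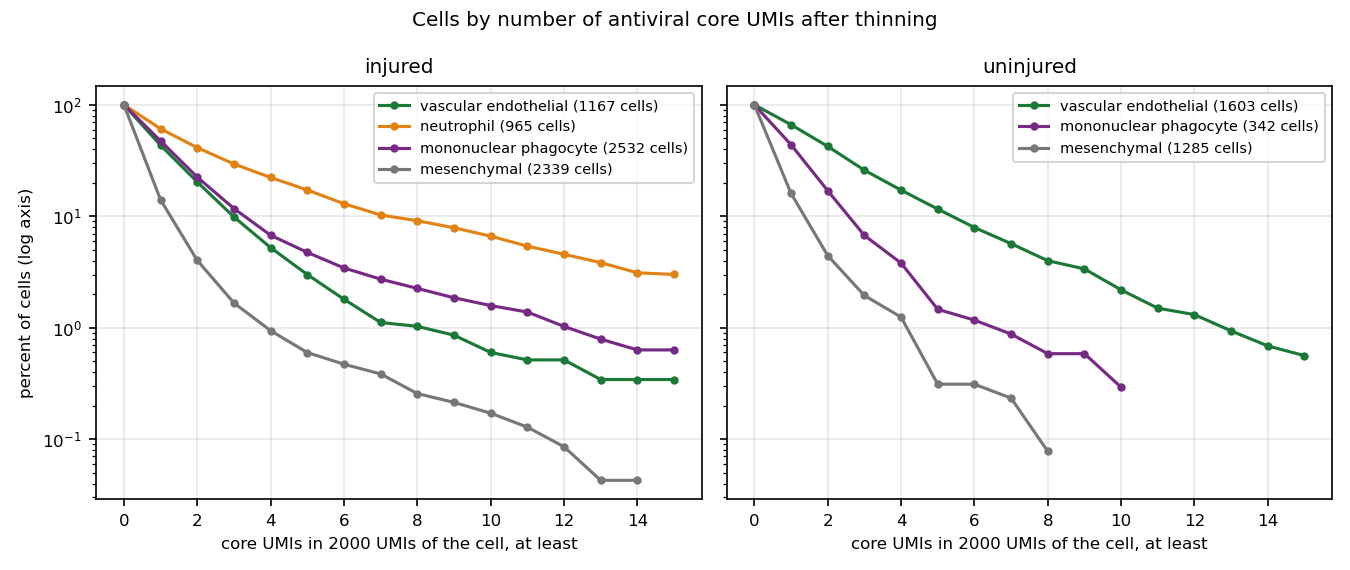
Percent of cells (log axis) with at least a given number of antiviral core UMIs after thinning each cell to 2000 UMIs, injured left and uninjured right, for 4 classes. Neutrophils have the longest tail in the injured library, with 17.2% of cells at 5 or more, and vascular endothelium has it in the uninjured library, with 11.6%.

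Interferon transcripts themselves were scarce. Ifnb1, encoding interferon beta, had 75 UMIs in injured and 4 UMIs in uninjured cells, and 74 of the injured ones were in mononuclear phagocytes. Ifng, encoding interferon gamma, had 230 UMIs in injured and 34 in uninjured cells, mostly in T or NK cells, with 99.4 CPM in 225 injured and 70.0 CPM in 47 uninjured cells. The 4 interferon alpha genes looked for had 1 UMI in the injured library, of Ifna4, and 0 in the uninjured library. Ifngr2, a chain of the interferon gamma receptor, had 47.0 CPM in injured and 23.6 CPM in uninjured vascular endothelium. Socs1, a brake on the receptor kinases, had 10.1 CPM in injured and 22.2 CPM in uninjured vascular endothelium (-0.85).

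A second list held 26 further interferon-stimulated genes. In vascular endothelium 8 of 23 at 10 CPM or more were more than 2-fold lower and 1 higher, against 4.41% and 4.70% of all genes. The lower ones included the GTPases Tgtp2 (-1.69), Gbp6 (-1.39) and Gbp4 (-1.31), with Gbp4 at 26.1 CPM in injured and 72.2 CPM in uninjured cells. Of the chemokines that draw T cells, Cxcl9 was lower in injured endothelium (12.5 against 37.3 CPM in uninjured), and Cxcl10 was the gene that was higher (26.1 against 7.82 CPM). In capillary cells 0 of 23 were past 2-fold, against 0.505% of all genes lower and 0.792% higher. In mononuclear phagocytes 0 of 19 were past 2-fold, against 2.71% higher and 3.91% lower, and in resident macrophages 0 of 20, against 3.10% higher and 3.37% lower. Among so few genes, 0 is near these shares. The second list's median log2 ratio in resident macrophages was 0.42, against 0.49 for the members. Dendritic cells had 6 of 20 higher and 0 lower (background 5.85% and 6.04%). Pericytes and smooth muscle had 3 of 14 higher and 0 lower (6.89% and 6.38%). Lymphatic endothelium had 1 of 17 higher and 8 lower (10.6% and 10.3%). Psmb9, an immunoproteasome subunit, had 74.5 CPM in injured and 36.8 CPM in uninjured resident macrophages (0.93).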

How the data were processed

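Per the labels' protocols, cells freed with collagenase and dispase went into 10x Genomics 3' v2 libraries. The authors deposited raw UMI counts for each gene and barcode, made with Cell Ranger 5.0.1 on mm10 per the submitters' processing notes. No deposited barcode had fewer than 500 UMIs. Kept cells had 500 or more genes and at most 10% mitochondrial UMIs. Scrublet in scanpy 1.11.5 marked 1 injured and 3 uninjured cells by its own thresholds, so 215 injured and 60 uninjured cells scoring above 0.2 were left out. Doublets may remain and free RNA was not removed. Kept cells held 238925558 injured and 88562103 uninjured UMIs.

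Leiden clustering at resolution 0.8 used 2000 variable genes with 0 interferon genes among them, 30 components and 15 neighbours, without batch correction. A cluster took the best marker list with 3 or more markers in 10% of its cells. It stayed unnamed if shallow, or if another class's list with 5 or more markers reached 0.5 of its score. That share was first 0.75 and was lowered after the clusters were seen, and the rules for subtypes, the 14-gene core, the 5-UMI limit and the Scrublet threshold were also set after seeing the data. The members, lists and tests were chosen with earlier results of these data known. UMIs were summed by population and library, with exact 95% Poisson intervals and conditional intervals for ratios, which cover counting error only. The rule for named genes took, in each comparison, 12 members from either end of the ratio ranking and each role group, and the text gives those past 2-fold and examples of the rest. Other genes come from pathway lists. Promoters came from RefSeq on GRCm38.p6 and gene positions from GENCODE vM21 on the same genome. The calculation of ratios was tested on simulated data. Alternatives are named in the closing section. One pathway gene is not reported here.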

Additional observations from a re-analysis of the deposited data

Results flagged for a closer look

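Ifit2, Ifit3 and Rsad2 went opposite ways in 2 classes under the same comparison. Ifit2 had log2 ratios of -1.66 in vascular endothelium and 1.67 in mononuclear phagocytes. Ifit3 had -1.28 and 1.32 in the same classes. Rsad2 had -1.29 and 1.20. Each class is 1 library per group, so the difference between the classes was not tested. In the capillary subtype the same genes were at -0.42, 0.21 and 0.06, and in resident macrophages at 2.47, 1.94 and 2.07.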

How the results depend on the processing

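No paired analysis was possible because each group is 1 library. For the same reason no replicate could be left out. All values are medians of the members' log2 ratio or numbers of members past 2-fold, and the cause of a change was not tested. Across all cells the median was -0.58 with a mitochondrial limit of 20%, -0.55 with median-of-ratios scaling and -0.68 without the 1% of cells highest in members. It was -0.71 with a pseudocount of 1 CPM, where 1 member was higher. It was -0.45 with 3 lower in Xist-positive cells lacking Y-linked UMIs, and -0.76 in Y-positive cells lacking Xist UMIs. With each cell weighing the same it was -0.35 with 3 higher and 3 lower, with named classes weighing the same -0.066 with 1 lower, and in cells at or below the median stress share, chosen after seeing the data, -0.81.

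In vascular endothelium the median was -0.60 with 7 lower in Xist-positive cells lacking Y-linked UMIs, -0.91 in Y-positive cells lacking Xist UMIs, and -0.68 with each cell weighing the same, where 8 were lower and 7 of the 12 stayed past 2-fold. With 3 subtypes weighing the same, chosen after seeing the data, it was -0.14 with 0 lower, and Rsad2 turned to 0.24. In mononuclear phagocytes 2 members were higher with the 20% limit, and 3 of the 5 past 2-fold stayed so in low-stress cells and 4 with the unnamed macrophage cluster included. In their Y-positive cells lacking Xist UMIs the median turned to -0.21, with 2 higher and 3 lower. In mesenchymal cells the median turned to 0.0018 with median-of-ratios scaling and was -0.30 with 2 lower in Y-positive cells lacking Xist UMIs. Their count of lower members was 2 with a pseudocount of 1 CPM (1 higher), without the top 1% of cells and in low-stress cells. The capillary median turned to 0.0455 in Y-positive cells lacking Xist UMIs, where 1 member was higher, and 1 was lower in Xist-positive cells lacking Y-linked UMIs and in low-stress cells.

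Keeping cells of high Scrublet score or leaving out cells under 2000 UMIs moved no median by more than its counting interval. Letting interferon genes enter the clustering, or dropping the minimum level, leaves the all-cell median the same by construction. Over 466 recomputed values of members past 2-fold, 465 kept their direction and 395 stayed past 2-fold. These totals include values that could not change. Dropping the minimum level repeats the 38 main values over all comparisons, and letting interferon genes enter the clustering repeats the 9 of all cells. Oas1a shares 51.2% of the words of its last 500 bases with Oas1g, so its level is uncertain.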

Other observations

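Among cells no class claimed, a cluster of 132 injured and 236 uninjured cells with markers of both pericytes and endothelium had at least 1 core UMI in 55.0% of injured and 63.5% of uninjured cells after thinning, and core levels of 514 CPM in injured and 789 CPM in uninjured cells. Injured mast cells, 33 cells, had a core level of 448 CPM (95% interval 364 to 545). The 225 injured T or NK cells had 216 CPM, and the 47 uninjured ones, too few for a class comparison, 238 CPM. Igtp, an immunity-related GTPase, was highest in T or NK cells among injured classes, at 29.0 CPM against 16.8 CPM in vascular endothelium. An endothelial subcluster that stayed unnamed, 147 injured and 70 uninjured cells led by histone and cell cycle genes, had core levels of 284 CPM in injured and 629.8 CPM in uninjured cells.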
